A study of Mus musculus with 2 samples.

Results

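The cells described here were haemoglobin-bearing barcodes of mouse femur that carried *Car1* RNA, taken from 2 single-cell RNA-seq libraries. A barcode was a member if it had 1000 or more detected genes, if *Hba-a1*, *Hba-a2*, *Hbb-bs* and *Hbb-bt* together made up from 10% to under 50% of its unique molecular identifiers (UMIs, each counting 1 captured RNA molecule), and if it held at least 2 UMIs of *Car1*. The rule selected 141 of 10638 deposited barcodes, of which 138 came from untreated mice and 3 from calcitriol-injected mice. Haemoglobin share and *Car1* therefore chose the members, and their values are given as a description only.

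Both libraries came from male C57BL/6J mice that were 7 weeks old, with 6 mice pooled per library and 1 library per group. The calcitriol-injected mice received 2.5 µg/kg calcitriol (1,25-dihydroxyvitamin D3, the hormonal form of vitamin D) intravenously in 3 daily injections, and femurs were taken 24 h after the last. The untreated mice received no injection. In both groups the epiphyses were removed, the marrow was flushed out, the bone was digested with collagenase and EGTA, and cells carrying CD45, the common leukocyte antigen, were removed on magnetic beads. Because the animals were pooled and cells of 1 library are not replicates, differences between the groups were not tested, and every interval below covers counting error only.

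Erythroblasts are the nucleated precursors of red cells. As they mature they divide several times, accumulate globin RNA and enzymes of haem synthesis, build the red-cell membrane skeleton, and then lose ribosomes, mitochondria and the nucleus. *Car1* and *Car2* encode carbonic anhydrases, the enzymes that interconvert carbon dioxide and bicarbonate in red cells.

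The untreated members held 2360156 UMIs, of which 1713634 were not haemoglobin. Each had from 3498 to 59812 UMIs (median 15241) and from 1202 to 5633 detected genes (median 2518), with a haemoglobin share of 10.3% to 49.9% (median 31.0%). *Car1* itself ranged from 2 to 49 UMIs with a median of 8, and 22 members had exactly 2 UMIs. *Car1* lies on chromosome 3 at 14766216 to 14808368 (mm10, minus strand), and *Car2* on the same chromosome at 14886273 to 14900770 on the plus strand. Levels below are in CPM, the UMIs of a gene per 1000000 UMIs that were not haemoglobin, and log2 ratios compare such levels.

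The 3 calcitriol members were described one by one. The first had 23248 UMIs, 3418 genes, 14.2% haemoglobin and 20 UMIs of *Car1*. The second had 10707 UMIs, 2165 genes, 33.7% haemoglobin and 2 UMIs of *Car1*, and the third had 9978 UMIs, 1849 genes, 42.6% haemoglobin and 3 UMIs of *Car1*. The first thus supplied most of the 32780 UMIs without haemoglobin on the calcitriol side.

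**Figure D1:**
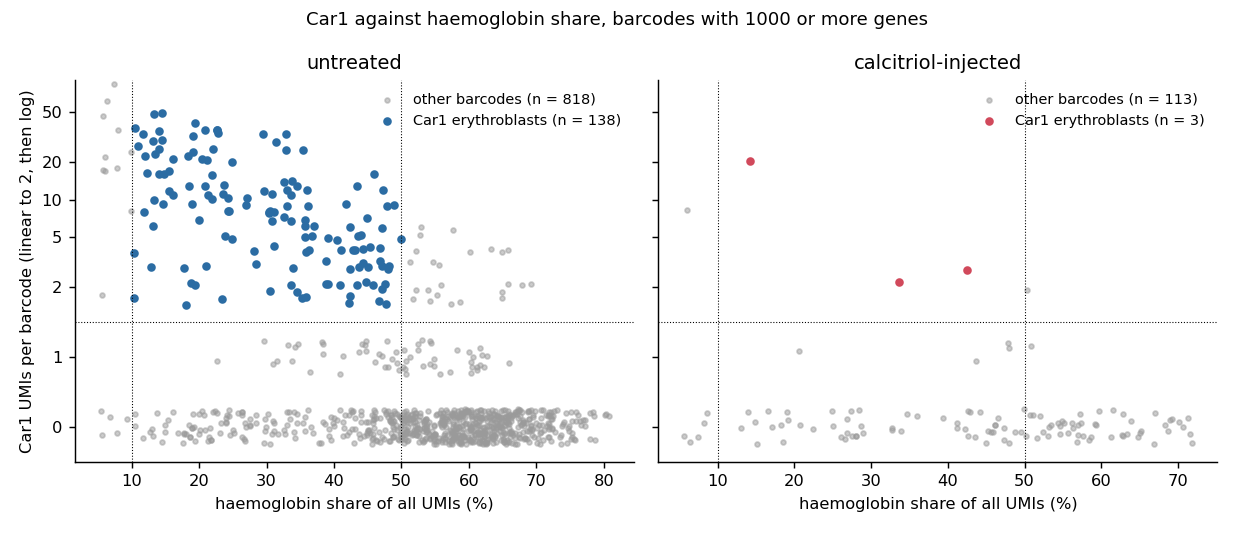
*Car1* UMIs per barcode (linear to 2, logarithmic above, with points moved slightly to separate them) against haemoglobin share in percent, for barcodes with 1000 or more genes and at least 5% haemoglobin in each library. Dotted lines mark the limits of 10% and 50% and the limit on *Car1*; coloured points are the 138 untreated and 3 calcitriol members, and grey points are other barcodes.

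The limits cut through a continuum of barcodes. Outside the lower haemoglobin limit, 11 untreated barcodes with 5% to under 10% haemoglobin also carried 2 or more UMIs of *Car1*, and their *Slc4a1* level was 1048 CPM against 1336 CPM in the 21 members at 10% to under 15%. Outside the upper limit, 9 barcodes at 50% to under 55% had 4073 CPM of *Slc4a1* and 230 CPM of *Mcm3*, against 3472 and 465 CPM in the 17 members at 45% to under 50%. Barcodes with exactly 1 UMI of *Car1* (n = 29) had 606 CPM of *Klf1* and 215 CPM of *Mcm3*, against 725 and 251 CPM in the members with exactly 2.

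The erythroid identity in the label held in most of these barcodes. An untreated member with 0 UMIs of *Klf1*, *Gata1* and *Slc4a1* is described below. *Klf1*, a transcription factor of the erythroid lineage, was detected in 135 of 138 untreated members (97.8%) at a median UMI count of 15241 per barcode. In endothelial barcodes (under 10% haemoglobin, 2 or more UMIs of *Pecam1* plus *Cdh5*), which should lack it, *Klf1* was detected in 1 of 208 (0.481%) at a median of 9691.5 UMIs. *Alas2*, the first enzyme of haem synthesis in erythroid cells, was detected in 138 members against 10 of the 208 endothelial barcodes (4.81%). *Slc4a1*, which encodes the anion exchanger band 3, was detected in 137 members. *Gata1*, the master regulator of the lineage, was detected in 106 members (76.8%) against 1 of 208.

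The markers of DNA replication named with the label were also present. *Rrm2*, a subunit of ribonucleotide reductase, was detected in 137 untreated members against 6.25% of endothelial barcodes. *Mcm3*, part of the replicative helicase, was detected in 119 (86.2%) against 17.8%, and *Uhrf1*, which carries DNA methylation through replication, in 124 (89.9%) against 5.29%. *Mki67*, a marker of cycling cells, was detected in every untreated member, against 6.73% of endothelial barcodes.

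Several genes that define progenitors were at 0 or near it. *Kit*, the stem cell factor receptor, *Gata2* and *Muc13* had 0 UMIs in the untreated members, which allows at most 1.75 CPM by a limit of 3 counts. *Cd34* had 4 UMIs, all in 1 member, and *Myb* had 3 UMIs. The whole list of 18 progenitor genes had 350 UMIs in the 135 members without other cells' markers, 0.0212% of non-haemoglobin UMIs, against 0.0155% in haemoglobin-rich barcodes treated the same way. Of these, 335 were of *Ifitm3*, an interferon-induced membrane protein. *Kit* stood at 8.09 CPM in the 11 untreated barcodes with *Car1* and under 5% haemoglobin. That level rests on few UMIs and gives no firm scale for the 0 in the members. The embryonic globin genes *Hbb-y*, *Hbb-bh1* and *Hba-x* had 0 UMIs in the members. The cells are called Car1 erythroblasts here, after the rule.

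Markers of other cell types were concentrated in 3 untreated members, in which 12 lists of such markers took 1% or more of the UMIs that were not haemoglobin. The first of these held 600 UMIs of *Prg4*, a lubricating proteoglycan of joint surface cells, and 0 of *Klf1*, *Gata1* and *Slc4a1*. The second held 1903 UMIs of *Mgp* and 607 of *Col2a1*, genes of cartilage matrix, and the third held 113 UMIs of *Dcn*, a proteoglycan of connective tissue. The latter pair were among 5 untreated members that a doublet score marked. In the other 135 members the stroma list had 125 UMIs in all (36 of *Mgp*, the highest) and the chondrocyte list 148 (79 of *Col2a1*, the highest). Of these *Col2a1* UMIs, 41 lay in 1 member, in which the 12 lists took 0.774%. The osteoblast list had 29 UMIs in the 135 members, with *Postn* highest at 13, and 5 of its 10 genes were detected. The megakaryocyte list had 38 UMIs, of which *Gp9* gave 27. The neutrophil, B cell and T or NK cell lists had 0 UMIs, the leukocyte list had 3 UMIs, all of *Coro1a*, and *Ptprc*, the gene of CD45, was at 0. In the 3 calcitriol members the 12 lists took at most 0.0563%. Several values below are therefore given without the 3 untreated members, and some both with and without them. Levels and ranges over all untreated members include them.

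The 15 most abundant genes of the untreated members included *Fth1*, the ferritin heavy chain (13154 CPM), the nuclear RNA *Malat1* (10029 CPM) and *Tpt1* (8549 CPM). *Car2* followed at 8457 CPM, with a lowest, median and highest member of 1187, 9063 and 21231 CPM. Without the 3 members that held other cells' markers, its lowest value was 4680 CPM at 10% to under 20% haemoglobin. It was 4561 CPM at 30% to under 40% and 6805 CPM at 40% to under 50%. The peroxide-removing *Prdx2* stood at 7866 CPM and the haem-degradation and redox enzyme *Blvrb* at 4565 CPM. The chromatin genes *H3f3a* (7587 CPM), *Hmgb2* (5909 CPM) and *Hist1h1b* (5058 CPM) were in the same group. *Gm42418*, at 6828 CPM, overlaps ribosomal RNA sequence and was treated as uncertain. Of all haemoglobin UMIs in the untreated members, *Hbb-bs* gave 49.7%, *Hba-a1* 22.5%, *Hbb-bt* 17.3% and *Hba-a2* 10.4%; the near-identical alpha genes, and likewise the beta genes, may share reads.

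Among the members themselves, haemoglobin share ran with a broad difference in RNA content. The untreated members were divided into 36 at 10% to under 20% haemoglobin, 27 at 20% to under 30%, 38 at 30% to under 40% and 37 at 40% to under 50%. Between the lowest and highest bins, 243 of 1949 genes measured were 2-fold or more higher at 40% to 50% (12.5%) and 207 were 2-fold or more lower (10.6%). With haemoglobin kept in the total, the balance turned, to 55 higher (2.21%) and 693 lower (27.8%) among 2494 measured. Without the 3 members that held other cells' markers, the lowest bin had 33 members, and the counts were 224 of 1913 (11.7%) and 172 (8.99%). Depth moved with these bins, with median UMIs of 21835, 15500, 13237.5 and 11657, and the share of mitochondrially encoded RNA also moved (medians of 2.97%, 2.43%, 1.74% and 1.16% of all UMIs). Their part in the differences was not tested, except by thinning each barcode to 2000 UMIs, where 98 genes were 2-fold or more higher and 62 lower among 589 measured.

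The 10 lowest ratios were of genes with varied roles. Without the 3 members, *Nme1*, a nucleoside diphosphate kinase, stood at 296, 184, 88.2 and 3.83 CPM in the 4 bins and was detected in 30 of 33, 17 of 27, 13 of 38 and 1 of 37 members. Its log2 ratio between the outer bins was -6.27 (95% counting interval -11.58 to -3.78), from 1 UMI at 40% to 50%. *Hspe1*, the mitochondrial co-chaperonin, stood at 199, 119, 45.3 and 3.83 CPM (log2 ratio -5.70). *Cdk4*, the kinase that drives passage through G1, stood at 184, 98.1, 40.3 and 7.66 CPM (log2 ratio -4.58, -7.65 to -2.70) and was detected in 28 of 33 members in the lowest bin and 2 of 37 in the highest. *Pebp1*, a regulator of kinase signalling, had 89 UMIs in the lowest bin and 2 in the highest (log2 ratio -4.15), and *Mllt3*, a chromatin reader, 84 and 3 (-3.49). The noncoding RNA *Kcnq1ot1* had 72 UMIs in the lowest bin and 0 in the highest. *Nme1* and *Hspe1* have close copies in the genome that make their counts uncertain. *C1qbp*, a protein of the mitochondrial matrix, had a log2 ratio of -3.24, and the mitochondrial ribosome genes *Mrps16* and *Mrps28* had -2.85 and -2.78. The cyclin gene *Ccnd3*, a partner of *Cdk4*, stood at 784 CPM in the lowest bin and 452 CPM in the highest (log2 ratio -0.80).

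The promoters of *Cdk4* and *Nme1* are shown because these genes were among the lowest in the outer-bin comparison and both carry CACGTG, the palindromic core E-box that MYC and related factors are known to bind. The sequences are from RefSeq (GRCm38.p6), 250 bases before to 50 bases after the start, written 5′ to 3′ on the gene's strand, with CACGTG in capitals. *Cdk4* has it 4 times in chr10:127063285-127063584 (plus strand), at -172, -118, -98 and -11 from the start, and *Nme1* once in chr11:93968223-93968522 (minus strand), at -18.
Cdk4: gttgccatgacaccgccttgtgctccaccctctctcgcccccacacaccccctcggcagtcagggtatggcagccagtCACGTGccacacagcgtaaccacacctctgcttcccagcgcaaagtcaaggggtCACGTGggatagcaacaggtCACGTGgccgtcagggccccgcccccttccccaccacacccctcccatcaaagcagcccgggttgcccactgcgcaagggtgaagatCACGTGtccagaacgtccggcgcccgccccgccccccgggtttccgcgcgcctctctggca
Nme1: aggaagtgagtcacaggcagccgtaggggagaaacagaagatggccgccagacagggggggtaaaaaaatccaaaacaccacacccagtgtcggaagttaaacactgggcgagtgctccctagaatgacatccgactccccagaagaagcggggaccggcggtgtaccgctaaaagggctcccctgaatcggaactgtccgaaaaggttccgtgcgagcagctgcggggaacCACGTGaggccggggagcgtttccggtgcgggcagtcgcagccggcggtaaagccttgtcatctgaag

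The same letters stood in 7.15% of 32851 promoters of this length. Of the 10 lowest genes, 9 had a promoter in the table and 2 of these held CACGTG, as did 3 of 12 haem synthesis genes (25%, list median 0.84 in the gradient) and 6 of 43 replication genes. A match describes the letters in this window only.

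Of the lists taken, ribosomal protein genes had the most members on the low side. Of 80 measured, 48 were 2-fold or more lower at 40% to 50% haemoglobin and 0 were higher, with a median log2 ratio of -1.12 against 0.15 over all genes. They took 28.9%, 24.6%, 19.5% and 14.2% of the non-haemoglobin UMIs in the 4 bins. Many have processed copies, so single genes are uncertain. Of 5 genes of ribosome biogenesis, 3 were 2-fold or more lower (median -1.20), among them the nucleolar proteins *Npm1*, at 492 and 214 CPM in the outer bins, and *Nop56* (log2 ratio -1.23). Of 16 genes of mitochondrial import and biogenesis, 8 were 2-fold or more lower and 0 higher (median -0.99), including the import channel subunit *Tomm6* (-2.66) and the chaperonin *Hspd1* (-1.93). Mitochondrially encoded genes had a median of -0.70, with 3 of 11 past 2-fold.

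Genes of the mature red cell stood on the high side. *Alas2* stood at 535, 812, 1665 and 2275 CPM in the 4 bins (log2 ratio 2.09, 1.90 to 2.28). Over all untreated members it ran from 169 to 4895 CPM with a median of 1288 CPM. Of 12 haem synthesis genes measured, 4 were 2-fold or more higher and 0 lower (median 0.84), including *Fech*, which inserts iron into haem (1.16), and *Slc25a37*, the mitochondrial iron importer (1.58). Of 22 red-cell membrane genes, 12 were 2-fold or more higher and 0 lower (median 1.09). *Slc4a1* stood at 1423, 1727, 2433 and 3217 CPM. The late erythroid list had 11 of 17 past 2-fold and a median of 1.11.

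The promoter of *Alas2* is shown because its RNA had one of the 10 highest ratios. Of the 8 promoters matched among those 10 genes, it alone holds AGATAA or TGATAA on either strand. It lies at chrX:150547167-150547466 (plus strand), from RefSeq as above, and the capitals mark TTATCT, the reverse complement of AGATAA, a form of the site known for GATA factors, at -86.
Alas2: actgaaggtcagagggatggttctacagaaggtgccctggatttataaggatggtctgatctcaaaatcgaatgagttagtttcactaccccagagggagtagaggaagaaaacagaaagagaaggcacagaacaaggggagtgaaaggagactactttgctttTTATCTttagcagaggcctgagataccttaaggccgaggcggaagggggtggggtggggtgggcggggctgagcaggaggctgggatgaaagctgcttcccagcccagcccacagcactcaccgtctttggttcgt

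AGATAA or TGATAA, on either strand, stood in 18.6% of 32851 promoters and in 7 of the 16 red-cell membrane genes matched (43.8%). They stood in 2 of 12 haem synthesis genes (16.7%) and in 1 of the 8 matched among the 10 genes highest in the gradient (12.5%).

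Regulators differed in size. *Gata1* stood at 135 and 134 CPM in the outer bins, a log2 ratio of -0.01 (-0.62 to 0.57). *Klf1* had 0.51 (0.23 to 0.78), *Tal1* 1.15 and *Nfe2* 1.74, and of 13 erythroid transcription genes 6 were 2-fold or more higher and 0 lower. The receptors for transferrin and erythropoietin, *Tfrc* and *Epor*, had 0.81 and 0.79. Among 7 inhibitors of cyclin-dependent kinases, 4 were 2-fold or more higher: *Cdkn2d* stood at 184, 268, 521 and 732 CPM (log2 ratio 1.99) and *Cdkn1b* had 1.72. Highest of all was *Ypel3*, at 39.8 and 268 CPM (2.75). *Isg15* and *Rsad2*, both induced by interferon, stood at 91.9 and 559 CPM and at 47.5 and 245 CPM.

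**Figure D2:**
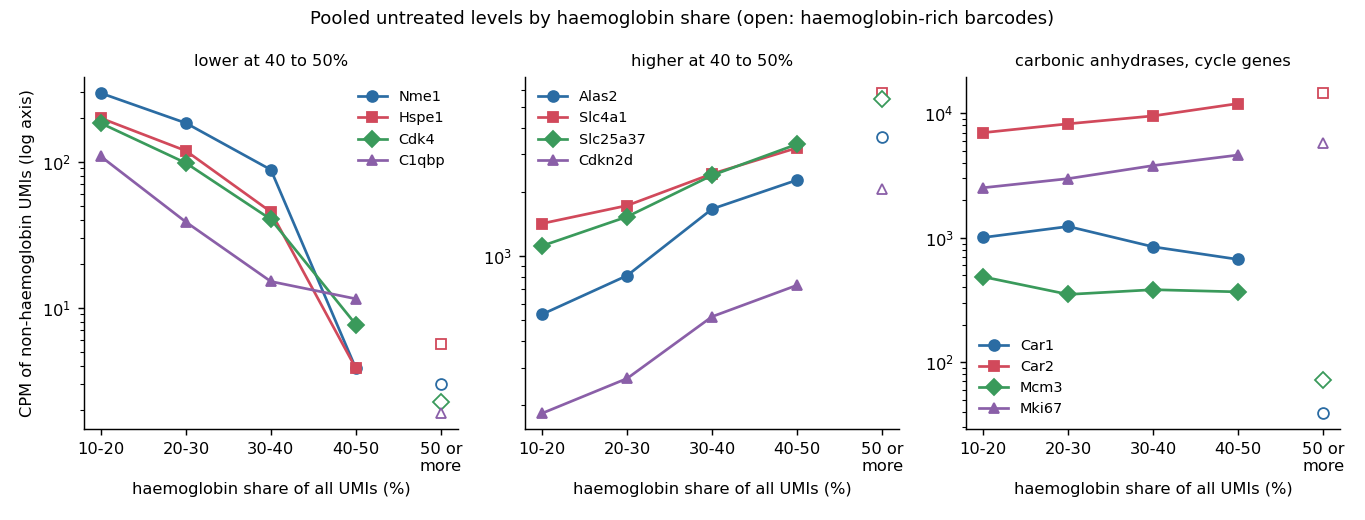
Pooled levels in CPM (log axis) of 12 genes in untreated members by haemoglobin share, with open symbols for haemoglobin-rich barcodes (n = 546, other cells' markers left out). *Nme1*, *Hspe1* and *Cdk4* go from 296, 199 and 184 CPM to under 8 CPM at 40% to 50%, and *Alas2* from 535 to 2275 CPM; no error bars are drawn because the pooled counts come from 1 library.

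Replication genes were described on the same scale, without haemoglobin in the total. Of 46 measured, 2 were 2-fold or more higher and 0 lower, with a median of -0.06, and they took 1.56%, 1.76%, 1.83% and 1.79% of the non-haemoglobin UMIs. *Mcm3* stood at 486, 351, 383 and 368 CPM, *Pcna*, the sliding clamp, had a log2 ratio of 0.11 and *Rrm2* 0.81. Mitosis genes took 2.26%, 2.56%, 3.11% and 3.53%, with 2 of 40 past 2-fold higher and a median of 0.61. *Mki67* stood at 2527 and 4630 CPM in the outer bins, and *Ube2c*, which acts in mitotic exit, had 0.94. Of 24 *Hist1* to *Hist4* histone genes, 14 were 2-fold or more higher (median 1.09).

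These directions depend on leaving haemoglobin out of the total. With all UMIs in the total, each of these log2 ratios is lower by 0.63, the median of all genes becomes -0.48 and that of the mitosis list changes sign to -0.02. The ribosomal protein, membrane and haem medians then become -1.76, 0.46 and 0.21, and keep their sign. Over all genes on this scale, 37 of 1913 are 2-fold or more higher at 40% to 50% (1.93%) and 509 lower (26.6%). Those higher number 0 of 22 for the membrane list, 1 of 12 for haem synthesis, 3 of 17 for the late erythroid list and 4 of 24 for histones. They number 1 of 13 for erythroid transcription (median 0.27) and 2 of 7 for the inhibitors of cyclin-dependent kinases. Those lower number 8 of 46 for replication (median -0.69, with 0 higher), a smaller share than over all genes, 10 of 11 for mitochondrially encoded genes (median -1.34), 13 of 16 for mitochondrial import and biogenesis, and 79 of 80 for ribosomal proteins.

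*Car2*, another carbonic anhydrase gene, was higher in each higher bin with haemoglobin left out of the total. With all UMIs in the total, its log2 ratio between the outer bins is lower by 0.63, like the others. *Car2* stood at 7004, 8253, 9553 and 12011 CPM in the 4 bins, and *Car1*, which the rule used together with haemoglobin, at 1006, 1234, 846 and 670 CPM. Across 135 members of 1 library, which share depth and a common total, Spearman's rho with haemoglobin share was 0.71 for *Car2* CPM. It was -0.77 for the ribosomal protein share, 0.42 for the mitosis share and 0.14 for the replication share. Between the replication and mitosis shares rho was -0.28.

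**Figure D3:**
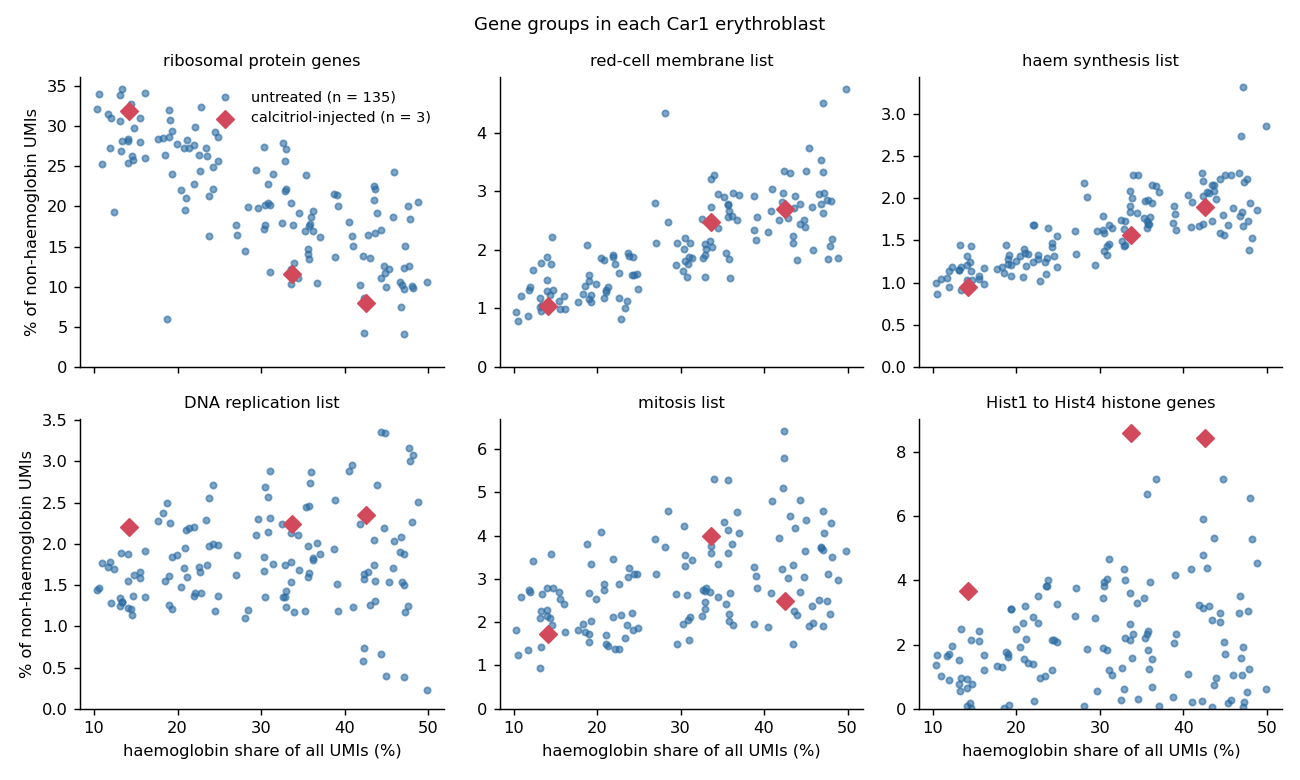
Share of non-haemoglobin UMIs in percent taken by 6 gene groups in each Car1 erythroblast, against its haemoglobin share, for 135 untreated members (circles) and 3 calcitriol members (diamonds). Ribosomal protein genes are lower and red-cell membrane and haem synthesis genes higher towards 50%, and the calcitriol members stand at 3.67%, 8.61% and 8.45% for histone genes.

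The members were also set against barcodes of the untreated library with more haemoglobin. Haemoglobin-rich barcodes, with 1000 or more genes and 50% or more haemoglobin, numbered 581 at a median of 12039 UMIs. Of 5170 genes measured, 1174 were 2-fold or more higher in the members (22.7%) and 778 lower (15.0%). With 546 of these barcodes and 135 members chosen for few other cells' markers, the counts were 1109 of 4918 (22.5%) and 745 (15.1%). After thinning to 2000 UMIs per barcode, the balance turned, to 265 higher and 393 lower among 2000 measured. The haemoglobin-rich barcodes were chosen on haemoglobin, so the ratios are a description. Of 87 ribosomal protein genes, 82 were 2-fold or more higher in the members and 1 lower (median 2.29), against a median of 0.15 over all genes. Of 56 replication genes, 38 were higher and 0 lower (median 1.63).

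The highest ratios over haemoglobin-rich barcodes were of genes with varied roles, and *Car1*, which the rule used, was among the 10 highest. *Pebp1*, a regulator of kinase signalling, had 141 UMIs in the members against 3 (log2 ratio 6.24, 4.66 to 8.54). *Nhp2*, a ribosome biogenesis factor, had 6.19 from 91 against 2 UMIs, *Nme1* 5.87 and *Cdk4* 5.52. *Mdh1*, the cytosolic malate dehydrogenase, had 5.46, and *Hmgn1*, a nucleosome-binding protein, 5.18. *Bcl11a*, a repressor of globin genes, stood at 44.3 CPM against 1.89 CPM (4.55, 3.27 to 6.22) and was detected in 31 members. *Mcm3*, *Ccnd3* and *Pcna* had 2.52, 2.23 and 1.75.

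Lower in the members were 19 of 22 late erythroid genes (median -1.72), 13 of 22 red-cell membrane genes (-1.09), 26 of 45 mitosis genes (-1.11) and 35 of 54 histone genes (-1.17). *Slc4a1* stood at 2013 CPM in the members against 5805 CPM, *Ube2c* at 1454 against 6405 CPM and *Cdkn2d* at 369 against 2063 CPM. *Sowaha* (-3.76), *Usp18* (-3.64), *Xpo7*, a nuclear export receptor (-3.48), and *Rsad2* (-3.44) were among the 10 lowest. Replication genes took 1.70% of the members' non-haemoglobin UMIs against 0.827%, and mitosis genes 2.73% against 5.74%. With all UMIs in the total, every ratio in this comparison is higher by 0.93: the replication median becomes 2.55, the late erythroid median stays below 0 at -0.80, and those of haem synthesis (from -0.63 to 0.30) and erythroid transcription (from -0.56 to 0.36) change sign. Over all genes, 2603 of 4918 are then 2-fold or more higher in the members (52.9%) and 131 lower (2.66%). Those lower number 8 of 22 for the late erythroid list, 0 of 22 for the membrane list (3 are higher), 3 of 45 for mitosis and 4 of 54 for histones.

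Barcodes in the same haemoglobin window with under 2 UMIs of *Car1* were of mixed kind. There were 221 untreated barcodes with 0 or 1 UMI of *Car1*, and against them 972 of 7013 genes were 2-fold or more higher in the members (13.9%) and 2161 lower (30.8%). Among the 10 lowest were *Fabp4*, *Col10a1*, *Ccl21a*, *Ibsp*, *Spp1* and *Col4a2*. With the barcodes in which other cells' markers took 0.1% or more left out, 119 remained and the counts were 471 of 3662 (12.9%) and 342 (9.34%).

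The closest match was made at 40% to under 50% haemoglobin, where 37 members and 90 *Car1*-poor barcodes had median UMIs of 11657 and 10658 and median haemoglobin shares of 44.9% and 46.8%. There 60 of 2011 genes were 2-fold or more higher in the members (2.98%) and 55 lower (2.73%). Haemoglobin, mitochondrial and ribosomal protein genes were left out of the ranking, and *Car1*, which the rule used, was highest. *Nasp*, a histone chaperone, stood at 341 against 78.8 CPM (log2 ratio 2.11, 1.57 to 2.68), and *Mcm3* at 368 against 103 CPM (1.83, 1.34 to 2.34). *Dtl*, *Tcf19*, *Rfc4* and *Mcm4*, all of S phase or the replication fork, had 1.59, 1.55, 1.44 and 1.35, and the neuropeptide precursor gene *Tac2* had 1.74. Of 40 replication genes, 6 were 2-fold or more higher and 0 lower (median 0.41, against -0.07 over all genes).

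Other cycle genes and lists differed in size and direction. *Rrm2*, named with the label, had a log2 ratio of 0.20 in that comparison and *Uhrf1* 0.60, whereas *Mki67* had -0.52 and *Ube2c* -0.68. Of 41 mitosis genes 0 were higher and 2 lower, and of 36 histone genes 11 were lower (median -0.88). Of 80 ribosomal protein genes 17 were higher and 0 lower (median 0.82). Red-cell membrane genes had 0 of 22 past 2-fold either way (median -0.43), as did haem synthesis genes (0 of 12, median -0.07). Over all 2011 genes, 2.98% were higher and 2.73% lower, so 0 is near those shares in lists of this size. The lowest were *Eif2ak2* (-2.39), a kinase activated by double-stranded RNA, *Plek2* (-2.21) and *Hist3h2a* (-2.11). After thinning to 2000 UMIs, the ratios of *Nasp* and *Mcm3* were 2.40 and 2.64, and that of *Nenf*, 1.33 at full depth, was 0.58.

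The promoter of *Mcm3* is shown because this helicase gene was among the highest in the comparison at matched haemoglobin. It lies at chr1:20820263-20820562 (minus strand), from RefSeq as above. The capitals mark 2 forms of the site known for E2F factors, TTTCCCGC, read here as its reverse complement GCGGGAAA at 20 bases after the start, and TTTGGCGC at 39.
Mcm3: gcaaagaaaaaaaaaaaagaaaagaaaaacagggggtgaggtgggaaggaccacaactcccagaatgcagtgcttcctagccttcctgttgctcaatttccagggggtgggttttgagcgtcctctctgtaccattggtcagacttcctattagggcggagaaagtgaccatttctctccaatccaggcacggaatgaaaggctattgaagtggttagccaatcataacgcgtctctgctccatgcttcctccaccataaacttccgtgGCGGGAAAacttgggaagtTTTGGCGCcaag

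One form or the other, on either strand, stood in 11 of 43 replication genes matched (25.6%) and in 1.56% of all promoters.

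**Figure D4:**
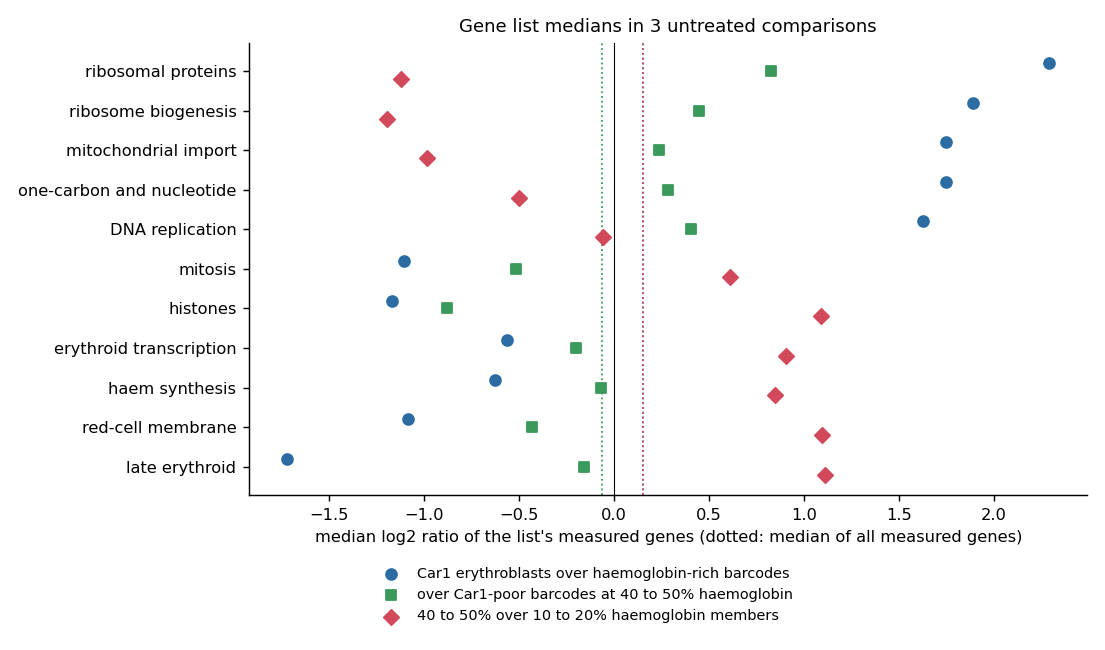
Median log2 ratio of each gene list in 3 comparisons within the untreated library: members over haemoglobin-rich barcodes (circles), members over *Car1*-poor barcodes at 40% to 50% haemoglobin (squares) and members at 40% to 50% over those at 10% to 20% (diamonds). Dotted lines are the medians of all genes measured, 0.15, -0.07 and 0.15; ribosomal proteins stand at 2.29, 0.82 and -1.12, and the red-cell membrane list at -1.09, -0.43 and 1.09.

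Car1 erythroblasts were rarer in the calcitriol library by every denominator taken. Of barcodes with 1000 or more genes, 138 of 2889 untreated (4.78%, exact 95% interval 4.03% to 5.62%) and 3 of 3195 calcitriol (0.0939%, 0.0194% to 0.274%) were members. Haemoglobin-bearing barcodes were rarer altogether, so shares were also taken within them. Of barcodes with 10% or more haemoglobin, 138 of 940 (14.7%, 12.5% to 17.1%) and 3 of 110 (2.73%, 0.566% to 7.76%) were members. Within the window of 10% to under 50%, the shares were 38.4% of 359 (33.4% to 43.7%) and 5.08% of 59 (1.06% to 14.1%). With barcodes holding 1% or more of other cells' markers left out, they were 135 of 265 (50.9%, 44.8% to 57.1%) and 3 of 24 (12.5%, 2.66% to 32.4%). If the rule asks for at least 1 UMI of *Car1*, the members number 167 untreated and 7 calcitriol. Each interval covers counting error within 1 library and is no comparison of the groups, which were not tested. With 1 pooled library per group, calcitriol, the flushing of marrow, the CD45 depletion and any other step that differed between the preparations cannot be told apart.

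Expression in the 3 calcitriol members was compared with the 138 untreated ones over 248 genes. Of these, 6 were 2-fold or more higher (2.42%) and 16 lower (6.45%), with a median log2 ratio of -0.05. The median haemoglobin shares of the members were 33.7% and 31.0%. Without the first calcitriol member, which had the most UMIs, 118 genes were measured and 51 were 2-fold or more lower.

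Among genes ranked, the 3 highest ratios were of histone genes. *Hist1h2ap* had 273 UMIs in the 3 calcitriol members and 2495 in the untreated ones, or 8328 against 1456 CPM (log2 ratio 2.52, 2.33 to 2.70). The 3 members had 122, 85 and 66 UMIs, or 6115, 11973 and 11516 CPM, each above the highest of the 135 untreated members in its own haemoglobin bin (2586, 7252 and 5897 CPM). *Hist1h2ae* had a log2 ratio of 2.13, *Hist1h1b* 1.47 and *Hist1h1a* 1.17, the last with a ratio of -0.57 in members under 30% haemoglobin. Of 7 histone genes measured, 4 were 2-fold or more higher (median 1.17), and the *Hist1* to *Hist4* genes together took 5.57% of non-haemoglobin UMIs against 1.86%. *Hist1h1b* was not high in all 3: the third member, with 43 UMIs (7503 CPM), stood above 26 of the 37 untreated members in its bin. Histone genes of this cluster are near copies of one another, so their split is uncertain. *Rbm3*, a cold-inducible RNA-binding protein, followed at 2990 against 1202 CPM (1.31), and *Gm10076*, a ribosomal protein pseudogene, at 1.21.

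The 10 lowest ratios were of genes with varied roles. Of 11 mitosis genes measured, 2 were 2-fold or more lower and 0 higher (median -0.36), while *Mki67*, a marker of cycling cells, stood at 4698 against 3183 CPM (log2 ratio 0.56). The mitosis list took 1.73%, 4.00% and 2.48% in the 3 members, above 6 of 33, 31 of 38 and 9 of 37 untreated members in their bins. Replication genes had 0 of 4 past 2-fold (median 0.30) and took 2.24% against 1.66%, and the 3 members stood above 29 of 33, 27 of 38 and 28 of 37 untreated members in their bins. The stress list had 1 of 5 lower and 0 higher, with a median of 0.79, and took 0.784% against 0.621%. Over all 248 genes, 2.42% were higher and 6.45% lower, so the mitosis, replication and stress counts, from few genes each, are a description only. *Cks2*, a subunit of cyclin-dependent kinases, had 10 UMIs against 1756 (log2 ratio -1.75, -2.81 to -0.87). It was not low in all 3 members: with 2, 7 and 1 UMIs, they stood above 0 of 33, 16 of 38 and 4 of 37. *Ube2c* had -1.09 and *Cenpf*, a kinetochore protein, -0.99, which is short of 2-fold. The chaperone genes *Hspa8* and *Hsp90ab1* had -1.54 and -1.21, and *Ftl1*, the ferritin light chain, -1.15; the 14 UMIs of *Hsp90ab1* lay in 1 member. With 7 calcitriol barcodes at 1 or more UMIs of *Car1*, *Ube2c* changed sign to 0.087, and with haemoglobin from 5%, *Hspa8* changed sign to 0.54. *Mgp* had 0 UMIs in the calcitriol members, but 1903 of its 1954 untreated UMIs lay in 1 member, and *Cst3* (-2.43) changed sign to 1.56 without the 3 members that held other cells' markers. Mitochondrially encoded RNA took 0.979% of non-haemoglobin UMIs against 3.11%, with 7 of 8 genes 2-fold or more lower (median -2.08). The 3 calcitriol members, at 1.21%, 0.690% and 0.524%, were each below every one of the 135 untreated members in their bin, the lowest of which had 2.25%, 1.07% and 1.12%. The lowest of all untreated members had 0.536%, at 22.8% haemoglobin, in the bin without a calcitriol member.

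Of the erythroid lists, haem synthesis, red-cell membrane, late erythroid, and globin partner and redox genes had 0 past 2-fold between the groups. Over all 248 genes, 2.42% were higher and 6.45% lower, so 0 is near those shares where 8 or fewer genes were measured. Iron handling genes had 1 of 5 measured 2-fold or more lower with all UMIs in the total. Their share in the 3 calcitriol members stood above 3 of 33, 1 of 38 and 14 of 37 untreated members in the same bins. Haem synthesis genes had 0 of 8 past 2-fold (median -0.18), red-cell membrane genes 0 of 8 (median -0.22) and ribosomal protein genes 0 of 78 (median 0.01). The pooled ribosomal value covers a spread between the 3 members, the first of which held 19950 of their 32780 non-haemoglobin UMIs. Ribosomal protein genes took 31.9%, 11.6% and 7.92% in them, above 26 of 33, 3 of 38 and 3 of 37 untreated members in their own bins. Erythroid transcription genes, of which 1 was measured, took 0.705% of the pooled UMIs against 0.462%, and the 3 members stood above 32 of 33, 36 of 38 and 35 of 37. For late erythroid genes (0 of 5 past 2-fold, median -0.18) they stood above 10, 1 and 3 of these, and for globin partner and redox genes (0 of 5, median -0.32) above 13, 4 and 0. *Alas2* had 8, 12 and 17 UMIs in the 3 calcitriol members and *Slc4a1* 30, 28 and 19. *Car2* had 109, 42 and 29 UMIs, a log2 ratio of -0.62. *Cdk4* had 3, 0 and 0 UMIs and *Nme1* 1, 1 and 0. *Vdr*, the vitamin D receptor, had 0 UMIs in members of both libraries. The limit of 3 counts allows it up to 1.75 CPM in untreated members and up to 91.5 CPM in those from calcitriol-injected mice.

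Some of these differences were present in other erythroid barcodes of the same libraries. In haemoglobin-rich barcodes with few other cells' markers (34 calcitriol, 546 untreated), the log2 ratio of *Hist1h2ap* was 1.42, of *Hist1h2ae* 0.95 and of *Rbm3* 1.34. In *Car1*-poor barcodes (15 and 119) they were 1.47, 1.13 and 1.64. The *Hist1* to *Hist4* genes together differed by a log2 ratio of 1.58 in members but by 0.047 in haemoglobin-rich and 0.12 in *Car1*-poor barcodes. *Hist1h1b* and *Hist1h1a* differed in the other direction there, at -0.78 and -0.81 in haemoglobin-rich barcodes. Replication genes together had a log2 ratio of 0.43 in members, -0.43 in haemoglobin-rich and 0.0047 in *Car1*-poor barcodes. Mitochondrially encoded RNA was lower by less, at -0.43 and -0.28, and *Cks2*, at -0.14 and 0.05, had ratios near 0. *Gm10076* was higher in endothelial barcodes too, at 1.14. Whether these differences belong to the treatment or to the library was not tested.

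**Figure D5:**
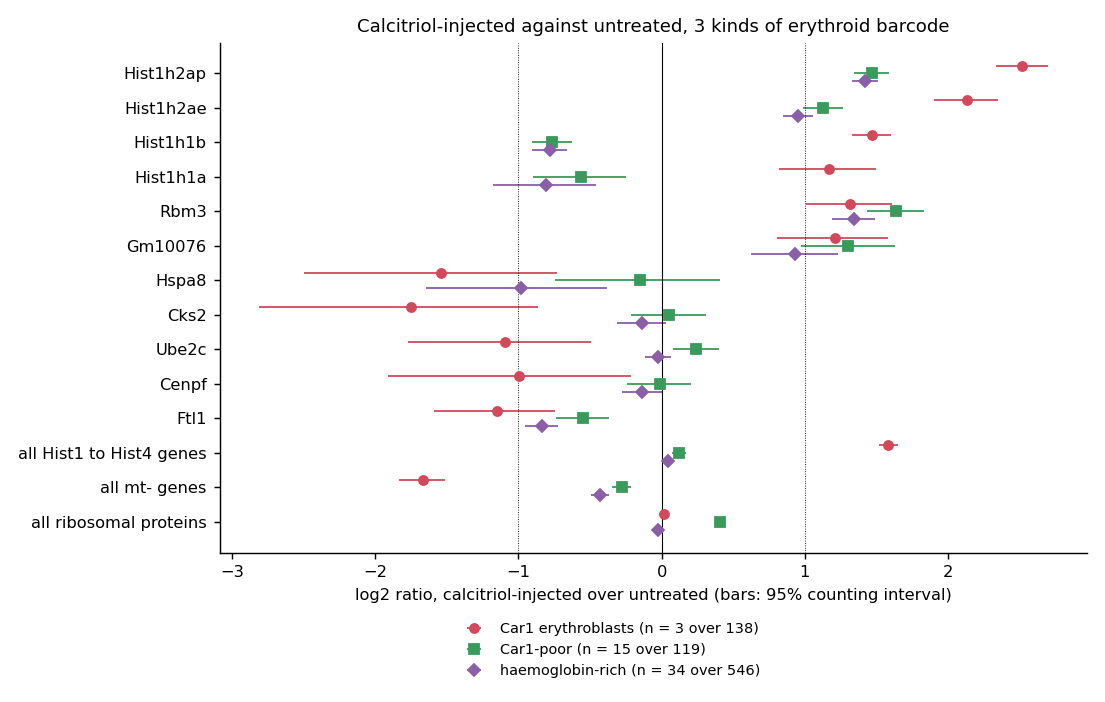
Log2 ratio of calcitriol-injected over untreated for 11 genes and 3 gene groups in Car1 erythroblasts (circles, 3 over 138), *Car1*-poor barcodes (squares, 15 over 119) and haemoglobin-rich barcodes (diamonds, 34 over 546), with bars for 95% counting intervals. *Hist1h2ap* and *Rbm3* are above 1 in all of them, whereas *Hist1h1b* is 1.47 in Car1 erythroblasts and below 0 in the others.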

How the data were processed

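The authors deposited, for each library, the filtered matrix of UMI counts, which the submitters' processing notes credit to Cell Ranger 4.0.0 and mm10. These deposited counts were used without change. Members and gene lists were chosen with earlier results of these data known. UMIs were summed over the barcodes of a set and divided by their total without the 4 haemoglobin genes. A gene was measured where its pooled level would give 20 UMIs in the smaller set, and was past the fold at 2-fold. A gene at 0 was set against 3 counts. Log2 ratios carry exact conditional intervals and shares Clopper-Pearson intervals at 95%. Doublets were scored with simulated pairs but not removed (164 untreated and 110 calcitriol barcodes). The libraries shared 8 barcodes, none of them a member. Library totals were 70266983 and 60392557 UMIs. Genes named were, of each list, its most abundant, most different or defining genes, and the 10 highest and lowest ratios of each comparison and the 15 most abundant genes, without haemoglobin, mitochondrial and ribosomal protein genes. Scripts were tested on simulated data (Python 3.11.15, numpy 2.4.6, scipy 1.17.1, pandas 2.3.3, scikit-learn 1.9.0). Some genes of the lists are not reported here by name.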

Additional observations from a re-analysis of the deposited data

How the results depend on the processing

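No paired analysis was possible because each group had 1 library and no replicate numbers. With at least 1 UMI of Car1, 7 calcitriol barcodes were members. Genes 2-fold or more higher and lower in calcitriol members numbered 6 and 16 of 248 measured. The number measured changed with the setting, so each count is given with it. The counts were 15 and 34 of 444 with at least 1 UMI of Car1, and 1 and 7 of 48 after thinning to 2000 UMIs. They were 21 and 39 of 511 with 10 UMIs as the minimum, and 2 and 5 of 123 with 50 UMIs. In members with 30% haemoglobin or more they were 3 and 31 of 110. The lower count alone became 30 of 613 with haemoglobin from 5% and 45 of 118 from 20%. It was 51 of 118 without the calcitriol member with the most UMIs. The higher count became 11 of 248 with the mean of the members' own CPM. The direction changed for Ube2c with at least 1 UMI of Car1 (0.087), Hspa8 with haemoglobin from 5% (0.54) and Hist1h1a in members under 30% haemoglobin (-0.57). It also changed for Cst3 with haemoglobin from 20% (2.77), without members with other cells' markers (1.56), without members scored as doublets (0.98) and in members with 30% haemoglobin or more (2.74).

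Against haemoglobin-rich barcodes (1174 and 778 of 5170 measured), the counts were 2226 and 128 of 4369 with all UMIs in the total. They were 265 and 393 of 2000 after thinning, and 73 and 108 of 288 in the calcitriol library. There the medians of the mitochondrially encoded and histone genes changed sign (-1.09 and 0.44), as did Cnmd without barcodes with other cells' markers (-1.26, or -1.31 by the stricter limit). Against Car1-poor barcodes (972 and 2161 of 7013), the counts were 233 and 336 of 2205 after thinning and 49 and 109 of 257 in the calcitriol library. Without barcodes with 1% or more of other cells' markers, they were 475 and 395 of 4108. Chosen after seeing the data, a stricter limit of 0.1% gave 471 and 342 of 3662, and 60 and 55 of 2011 at 40% to 50% haemoglobin. The stress list changed sign under both (0.24 and 0.21), and at 40% to 50% the vitamin D list (0.12) and Ibsp (0.029) did too. Between the haemoglobin bins (243 and 207 of 1949), the counts were 98 and 62 of 589 after thinning. They were 8 and 35 of 59 in the calcitriol library, which has 1 member at each end. With all UMIs in the total, added after seeing the data, they were 55 and 693 of 2494. Cdkn2d changed sign in the calcitriol library (-0.0078), and Mgp without members with other cells' markers (1.61). The cause of these changes was not tested. The 68 values of named genes at or under 3 counts in both sets, or at 0 in 1 set and at a level in the other under the limit that 0 allows, were given no ratio. The depth of the calcitriol side, 32780 UMIs without haemoglobin, limited its comparison to 248 genes.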

Other observations

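Interferon-induced genes varied widely among the untreated members. *Isg15* was detected in 84 of 138, with a median of 84.8 CPM and a highest value of 3362 CPM, and *Rsad2* in 56, with a highest value of 3660 CPM. Both were higher in haemoglobin-rich barcodes, at 2347 and 1414 CPM. In the calcitriol members *Isg15* had 3 UMIs and *Rsad2* 8.

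*Gfi1b*, a transcriptional repressor that the erythroid and megakaryocyte lineages need to develop, had 13, 0 and 3 UMIs in the 3 calcitriol members against 145 UMIs over 138 untreated members, 488 against 84.6 CPM, and it had too few UMIs to enter the comparison. It was named after its values were seen. Of the glucocorticoid-responsive genes, *Tsc22d3* had 44 UMIs and *Fkbp5* 5 in the untreated members. *Cyp24a1*, the vitamin D 24-hydroxylase, had 0 in the members of both libraries.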
